A study of Mus musculus with 4 samples.

Results

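The 31 genes described here were listed by symbol for their known roles in cholesterol synthesis, in its control by the sterol regulatory element-binding proteins (SREBPs), and in the uptake, movement, storage and efflux of cholesterol. Of these, 30 had a probe on the array, among 19718 genes with a probe of 1 symbol. No probe in the files used here carried the symbol Hmgcs1, which is therefore not described. Total RNA was measured in MA-10 cells, a mouse Leydig tumor cell line that makes steroid hormones from cholesterol. The cells were treated with 100 μmol/L cordycepin, an analogue of adenosine that lacks the 3′ hydroxyl group, or with vehicle for 3 hours. Each group had 2 one-colour Mouse OneArray arrays, control arrays H001 and H002 and cordycepin arrays H003 and H004. The sample descriptions name the vehicle as PBS and the methods of the study as DMSO, so the vehicle remains unsettled. For the dose, the cordycepin sample titles and the methods both give 100 μmol/L, while 1 protocol field gives 20 mg/mL. Whether the duplicates were grown as separate cultures is not stated, and the p-values may therefore rest on a technical spread alone.

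Cholesterol is built from acetyl-CoA through mevalonate and squalene, and then through a series of sterols that are trimmed to the final molecule. When sterols are scarce in the endoplasmic reticulum, SCAP carries the SREBP precursors to the Golgi apparatus, where they are cut, and the released part switches on genes for the synthesis and uptake of cholesterol. When sterols are plentiful, INSIG proteins hold SCAP back. Oxidised sterols activate the liver X receptors (LXRs), which switch on genes that export cholesterol. Leydig cells draw on cholesterol made in the cell, taken up from lipoproteins and released from stored esters, and pass it to the mitochondria for steroid synthesis.

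Of the markers of steroid-making cells, Star, Hsd3b1 and Cyp17a1 were detected on all 4 arrays, whereas Cyp11a1, the first enzyme of steroid synthesis, was listed at 0 on all 4. Of the 12 Leydig markers, 11 had a probe and 8 were detected on all 4 arrays. Nr5a1, Fdxr and Gata4, were called lower. The Leydig sum, over the normalized intensities of those probes, was 49050 on H001, 35260 on H002, 35630 on H003 and 28170 on H004. For Sertoli cells, 3 of 8 markers were detected on all 4 arrays, and their sum ranged from 3314 to 4717 in control and from 4864 to 5023 in cordycepin. The defining Sertoli gene Sox9 was among the genes lower with cordycepin, and Dhh, Gata1 and Inha were the markers detected on all 4 arrays. Germ cell markers (2 of 8 detected on all 4 arrays) summed to at most 93.87 on any array, macrophage markers (2 of the 5 with a probe) to at most 366.3, and peritubular and endothelial markers (3 of 8) to at most 759. The samples were of a cell line and not of testis tissue, and the part of other cell types in the results was not tested. In bulk RNA, fewer cells of a type and less RNA per cell cannot be told apart. The deposited normalization multiplied each array by 1 constant and left H001 above H002 for all 30 cholesterol genes, by a median of 0.52 on the log2 scale (range 0.33 to 0.84) against 0.15 in the raw intensities. H003 and H004 lay 0.04 apart.

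The promoters of 4 genes are shown because 3 of them, Insig1, Abca1 and Sc4mol, were lower with cordycepin under every scaling of the arrays that was compared, and the fourth, Srebf2, encodes the SREBP that drives cholesterol genes. The sequences are from RefSeq (mouse build GRCm38.p6), run 5′ to 3′ on the strand of the gene, and hold 250 bases before and 50 bases after the annotated start. They lie at chr5:28071162-28071461 (Insig1, plus strand), chr4:53159846-53160145 (Abca1, minus strand), chr8:64733529-64733828 (Sc4mol, whose current symbol is Msmo1, minus strand) and chr15:82147019-82147318 (Srebf2, plus strand). Capitals mark matches, on either strand, to TCACNCCA (a shortened sterol regulatory element), the CCAAT box (its own letters), the GC box GGGCGG, the E-box CACGTG and the TATA box TATAAA.
Insig1: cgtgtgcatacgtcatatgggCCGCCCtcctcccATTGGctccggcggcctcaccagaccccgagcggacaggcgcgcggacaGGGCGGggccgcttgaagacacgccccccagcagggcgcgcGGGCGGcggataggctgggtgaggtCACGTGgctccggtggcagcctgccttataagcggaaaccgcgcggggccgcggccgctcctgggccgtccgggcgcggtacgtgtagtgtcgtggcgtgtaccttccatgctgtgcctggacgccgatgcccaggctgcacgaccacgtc
Abca1: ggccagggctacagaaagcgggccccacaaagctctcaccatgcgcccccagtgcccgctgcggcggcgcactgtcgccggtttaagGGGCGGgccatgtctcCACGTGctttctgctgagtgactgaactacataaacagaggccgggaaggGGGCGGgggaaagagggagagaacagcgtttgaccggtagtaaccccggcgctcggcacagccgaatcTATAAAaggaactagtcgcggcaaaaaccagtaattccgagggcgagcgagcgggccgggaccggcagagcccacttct
Sc4mol: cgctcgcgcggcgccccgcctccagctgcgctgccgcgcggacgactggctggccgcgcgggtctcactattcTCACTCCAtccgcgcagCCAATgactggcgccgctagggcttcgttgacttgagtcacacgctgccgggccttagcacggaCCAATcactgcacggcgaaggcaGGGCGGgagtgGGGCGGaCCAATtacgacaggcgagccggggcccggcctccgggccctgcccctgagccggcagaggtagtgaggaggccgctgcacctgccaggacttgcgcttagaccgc
Srebf2: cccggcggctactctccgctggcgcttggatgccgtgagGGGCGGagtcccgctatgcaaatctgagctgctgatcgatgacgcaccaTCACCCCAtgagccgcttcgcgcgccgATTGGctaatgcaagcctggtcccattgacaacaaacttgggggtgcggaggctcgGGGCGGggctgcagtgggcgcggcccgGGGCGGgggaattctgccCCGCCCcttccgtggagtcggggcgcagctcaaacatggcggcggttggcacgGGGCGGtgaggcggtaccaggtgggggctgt

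The GC box was present in all 4 sequences. Insig1 and Abca1 also held an E-box, at −101 and −147 from the start. Sc4mol held the shortened element as TCACTCCA at −177 and 3 CCAAT boxes, and Srebf2 held it as TCACCCCA at −162 with 1 CCAAT box on the other strand. Only Abca1 among the 4 held TATAAA, at −29. Promoter windows were matched for 24 of the 30 genes, which had 33 windows because some have several starts. The longer form TCACNCCAC was in 0 of the 33 windows and in 1.24% of all 32851 windows of the same length, and the shortened form, searched after the longer one gave no match, was in 2 (6.06%) against 4.36%. CCAAT was in 21 of the 33 (63.6%) against 37.4%, GGGCGG in 27 (81.8%) against 35.7%, CACGTG in 8 (24.2%) against 7.15% and TATAAA in 4 (12.1%) against 13.6%. These are matches of letters in short windows, given as a description. TCACNCCA lies within TCACNCCAC, and the other motifs were counted separately whether or not they overlapped.

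Cordycepin lowered the signal of 4 of the 30 cholesterol genes and raised that of none, at an adjusted p under 0.05 (limma, Benjamini-Hochberg adjustment over all 24319 probes tested). The 4 were Abca1, the exporter of cholesterol to apolipoproteins, Insig1, the sterol-dependent brake on SCAP, and the sterol-trimming enzymes Sc4mol and Dhcr7. The share of 13.3% was read against the whole table, where 14.7% of 18474 genes were called lower and 0.942% higher. Of the 30 genes, 27 were detected on all 4 arrays (detection p under 0.05) and Srebf1, Abcg1 and Mylip on none. Among the 27, the share was 14.8%, against 22.1% lower and 0.505% higher among 11283 genes that both arrays of a group detected. The cholesterol genes were thus not called more often than other genes. Their median log2 ratio of cordycepin over control was −0.23, and that of all genes was −0.13. Among detected genes, the medians were −0.24 and −0.31. The standard error of every log2 ratio was 0.41, since the variance was shared completely over probes. With the deposited scaling no ratio under 1.10 in size was called, so smaller changes were not resolved in this fit. The median standard error was 0.12 with median centring of the arrays and 0.10 with quantile normalization. Smaller ratios were called there, such as −0.49 for Srebf2 with quantile normalization. With the spread of each gene taken alone, as in the test that the methods name, no gene was called after adjustment, in this list or in all, and 3 of the cholesterol genes had an unadjusted p under 0.05. At the thresholds of the methods (an unadjusted p under 0.05 with a log2 ratio of 1 or more in either direction), applied to the p-values of limma, the same 4 of the 27 detected genes were lower (14.8%, against 24.2% of detected genes) and none was higher (against 0.576%).

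**Figure D1:**
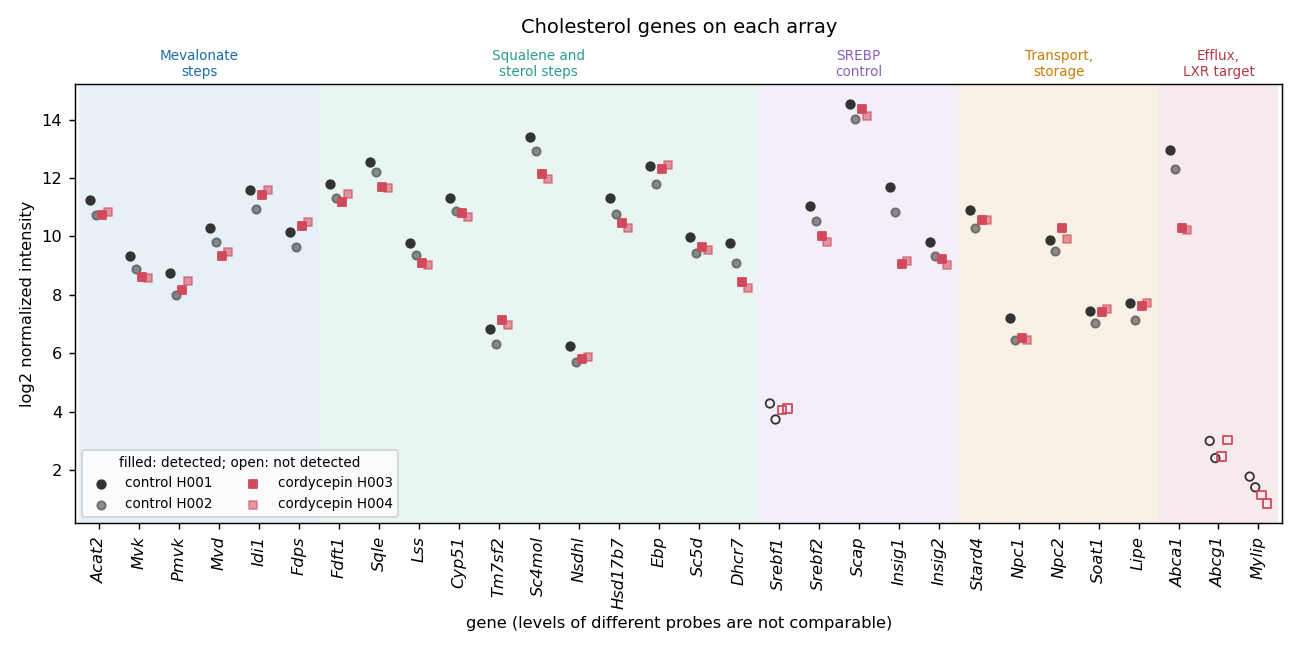
Log2 normalized intensity (y axis) of the 30 cholesterol genes (x axis) on each array, with circles for the 2 control and squares for the 2 cordycepin arrays, and open symbols where the probe was not detected. Abca1 and Insig1 lie far lower on both cordycepin arrays than on both control arrays, and the H001 circle lies above the H002 circle for all 30 genes.

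The control groups and cordycepin groups did not overlap for 13 of the 30 genes in the lower direction (43.3%, against 35.5% of all genes) and for 3 in the higher direction (10.0%, against 8.63%), and 14 overlapped. Over detected genes, the shares were 44.4% against 49.3% lower and 11.1% against 6.93% higher. With 2 arrays a group, such a separation is common.

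The largest change was that of Abca1 (chromosome 4, 53030789 to 53159988, GRCm38.p6). Its normalized intensity was 7969 on H001, 5052 on H002, 1254 on H003 and 1187 on H004. Both cordycepin arrays were far below both control arrays and close to each other. The mean fell from 6510 ± 2062 (SD, n = 2) to 1221 ± 47.5 (SD, n = 2), a log2 ratio of −2.38 (5.20-fold lower, adjusted p = 1.4e-07 in limma). The other efflux gene, Abcg1, a half-transporter that loads cholesterol onto HDL, and Mylip, an LXR target that encodes a ubiquitin ligase, were not detected on any array. Their intensities ranged from 5.33 to 8.18 and from 1.82 to 3.43, and no fold is given for them. Abca1 is thus the only one of the 3 efflux and LXR target genes with a measured change.

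Among the 5 genes of SREBP control, only Insig1 was called lower (20.0%, against 14.7% of all genes). Its intensity was 3283 and 1834 on the control arrays and 536 and 567 on the cordycepin arrays. The groups were well apart, and the mean fell from 2559 ± 1025 to 551 ± 22.4 (SD, n = 2 each), a log2 ratio of −2.15 (4.45-fold lower, adjusted p = 2.6e-06 in limma). Insig2, its paralog, measured 894 and 644 in control and 597 and 520 in cordycepin. Those groups did not overlap, but the log2 ratio of −0.45 was not called (adjusted p = 0.69 in limma).

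Srebf2, the precursor of SREBP-2, measured 2102 and 1487 on the control arrays and 1024 and 899 on the cordycepin arrays. Both cordycepin values lay below both control values, with a log2 ratio of −0.88 that was not called with the deposited scaling (adjusted p = 0.16 in limma). With the same scaling and only detected probes tested, it was called lower (adjusted p = 0.034 in limma). It is the gene closest outside the limit, Dhcr7 at −1.10 and Sc4mol at −1.11 being just inside. Srebf2 was called lower in the 6 other scalings compared, with log2 ratios from −1.21 to −0.49. Scap, the escort of the SREBPs, measured 23932 and 16732 in control and 21136 and 17810 in cordycepin, with overlapping groups and a log2 ratio of −0.04. Srebf1 was not detected, with intensities between 13.3 and 19.5 on the 4 arrays.

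Differences between the log2 intensities of a gene pair on the same array do not depend on the constant that scaled the array. Insig1 minus Insig2 was 1.88 on H001, 1.51 on H002, −0.16 on H003 and 0.13 on H004, so the ratio of Insig1 to Insig2 fell 3.27-fold (change of −1.71, pooled SD 0.23, n = 2 each). Srebf2 minus Scap was −3.51, −3.49, −4.37 and −4.31 in the same order, a 1.79-fold lower ratio (change of −0.84, pooled SD 0.03). Npc1 minus Npc2 was −2.67, −3.04, −3.79 and −3.47, a 1.70-fold lower ratio (change of −0.77, pooled SD 0.24). In all 3 pairs, both cordycepin arrays lay below both control arrays and the change exceeded the spread between duplicates. The two-sided exact permutation test gave p = 0.333 for each of the 3 pairs, which is the smallest that 2 against 2 arrays allow. The change was smaller after quantile normalization for Npc1 over Npc2 (−0.48, pooled SD 0.23) and for Srebf2 over Scap (−0.37, pooled SD 0.04), and a difference between the members of a pair was thus described and not established by the test.

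**Figure D2:**
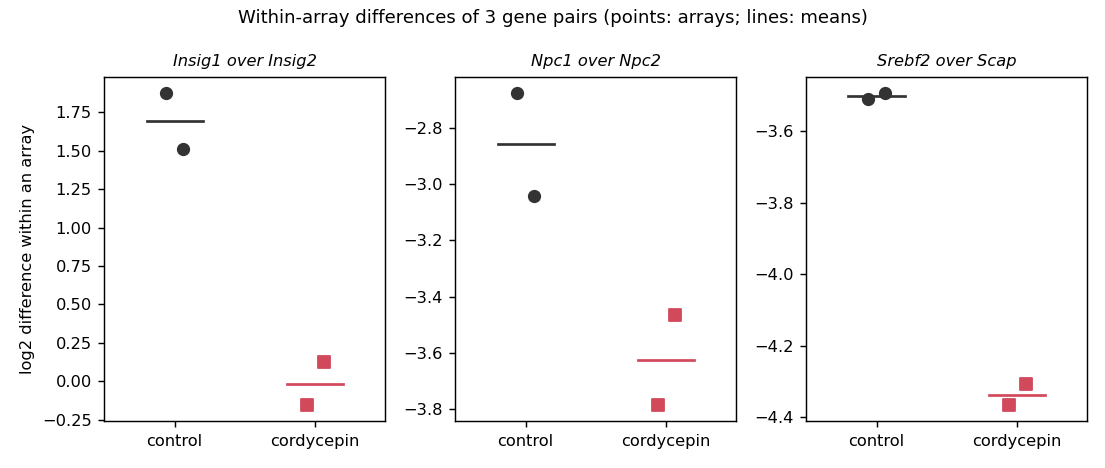
Log2 difference within an array (y axis) of Insig1 over Insig2, Npc1 over Npc2 and Srebf2 over Scap, with 1 point per array and a line at the mean of each group (x axis, control and cordycepin). In each of the 3 panels both cordycepin arrays lie below both control arrays, with a change of −1.71 for the INSIG pair.

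In the squalene and sterol steps, from the squalene synthase Fdft1 onward, 2 of 11 genes were called lower (18.2%, against 14.7% of all genes and 22.1% of detected genes), with a median log2 ratio of −0.36. Sc4mol, the oxidase that starts the removal of the methyl groups at carbon 4, had an intensity of 10866 and 7861 in control and of 4514 and 4053 in cordycepin. The groups were clearly separate, with means of 9363 ± 2125 and 4284 ± 326 (SD, n = 2 each), a log2 ratio of −1.11 (2.16-fold lower, adjusted p = 0.045 in limma). Dhcr7, which reduces 7-dehydrocholesterol to cholesterol in the last step of one branch, measured 873 and 545 in control and 347 and 299 in cordycepin. Its means were 709 ± 232 and 323 ± 33.6 (SD, n = 2 each), a log2 ratio of −1.10 (2.14-fold lower, adjusted p = 0.049 in limma). Both adjusted p-values lay close to the limit. The spot of Dhcr7 on H004 carried a flag of −50 whose meaning is not stated in the sources used here. Without H003 or without H004 neither gene was called, and without H001 Dhcr7 was not (adjusted p = 0.057 in limma).

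The partners of Sc4mol in the removal of those methyl groups were not called. Hsd17b7, the ketone reductase of that step, measured 2567 and 1760 in control and 1427 and 1264 in cordycepin, without overlap (log2 ratio −0.66, adjusted p = 0.40 in limma). Nsdhl, the decarboxylating dehydrogenase, measured 75.6 and 51.5 in control and 55.6 and 58.2 in cordycepin, with overlapping groups and a log2 ratio of −0.13. Whether these enzymes differ from Sc4mol in their response was not tested.

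Sqle, the oxygen-dependent epoxidase that is a main control point after squalene, measured 5946 and 4732 in control and 3327 and 3223 in cordycepin. The groups were apart, and the log2 ratio of −0.70 was not called (adjusted p = 0.35 in limma). Lss, the cyclase that makes lanosterol, had 875 and 660 against 550 and 524, a log2 ratio of −0.50. Cyp51, the lanosterol demethylase, had 2548 and 1886 against 1798 and 1632, a log2 ratio of −0.36. Both genes were without overlap and not called, and a second detected probe of Cyp51 gave −0.46. Fdft1, the squalene synthase, had log2 ratio −0.24 on its chosen probe, with overlapping values of 3533 and 2568 in control and 2310 and 2808 in cordycepin. A second probe of Fdft1, detected on 1 control array only, measured 26.3 and 19.5 in control and 10.0 and 12.7 in cordycepin, and with the mean of both probes the log2 ratio was −0.62. Ebp, the sterol isomerase, had overlapping values of 5403 and 3599 in control and 5106 and 5642 in cordycepin (log2 ratio 0.28). Sc5d, the desaturase just before Dhcr7, also overlapped, with 1009 and 685 against 794 and 738 (−0.12 on the log2 scale). Tm7sf2, a sterol reductase, ran the other way, with 114 and 79.9 in control and 141 and 125 in cordycepin. Its groups did not overlap, and the log2 ratio of 0.48 was not called (adjusted p = 0.64 in limma).

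None of the 6 measured genes of the steps up to farnesyl diphosphate was called, against 22.1% of detected genes lower and 0.505% higher. Their log2 ratios ranged from −0.64 to 0.53 with a median of −0.13. Mvd, the decarboxylase that makes isopentenyl diphosphate, measured 1244 and 893 in control and 647 and 711 in cordycepin, without overlap (log2 ratio −0.64, adjusted p = 0.44 in limma). Mvk, the mevalonate kinase, measured 644 and 474 against 392 and 383, also without overlap (−0.51 on the log2 scale). Fdps, the farnesyl diphosphate synthase, was the one with higher values in cordycepin on both arrays, 1300 and 1438 against 1128 and 798 (log2 ratio 0.53, adjusted p = 0.60 in limma).

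The other 3 overlapped between groups. Acat2, a thiolase that joins acetyl-CoA units, had 2438 and 1707 in control and 1691 and 1839 in cordycepin (log2 ratio −0.21). Idi1, the isomerase of isopentenyl diphosphate, had 3100 and 1952 against 2737 and 3105 (0.24 on the log2 scale). Pmvk, the phosphomevalonate kinase, had 426 and 257 against 288 and 357 on its chosen probe (−0.04). A second detected probe of Pmvk gave 0.45, so the direction differed between probes and neither value was called.

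None of the 5 genes of cholesterol transport and storage was called, against 22.1% of detected genes lower and 0.505% higher. Their median log2 ratio was 0.21. Npc2, the soluble lysosomal protein that hands cholesterol to Npc1, measured 935 and 724 in control and 1258 and 974 in cordycepin. Its groups did not overlap, with a log2 ratio of 0.43 (adjusted p = 0.72 in limma), and a second detected probe gave 0.15. Npc1, the lysosomal membrane exporter, measured 147 and 87.9 against 91.1 and 88.2, with overlapping groups and a log2 ratio of −0.34. Stard4, a carrier of sterols through the cytosol, had nearly identical cordycepin values, 1506 and 1505, which lay between the control values of 1908 and 1248 (log2 ratio −0.04). Soat1, which esterifies cholesterol for storage, measured 174 and 131 in control and 169 and 182 in cordycepin (0.21 on the log2 scale). Lipe, the hormone-sensitive lipase that frees stored cholesterol, measured 209 and 141 in control and 199 and 211 in cordycepin (0.25). The groups overlapped for Stard4, Soat1 and Lipe.

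**Figure D3:**
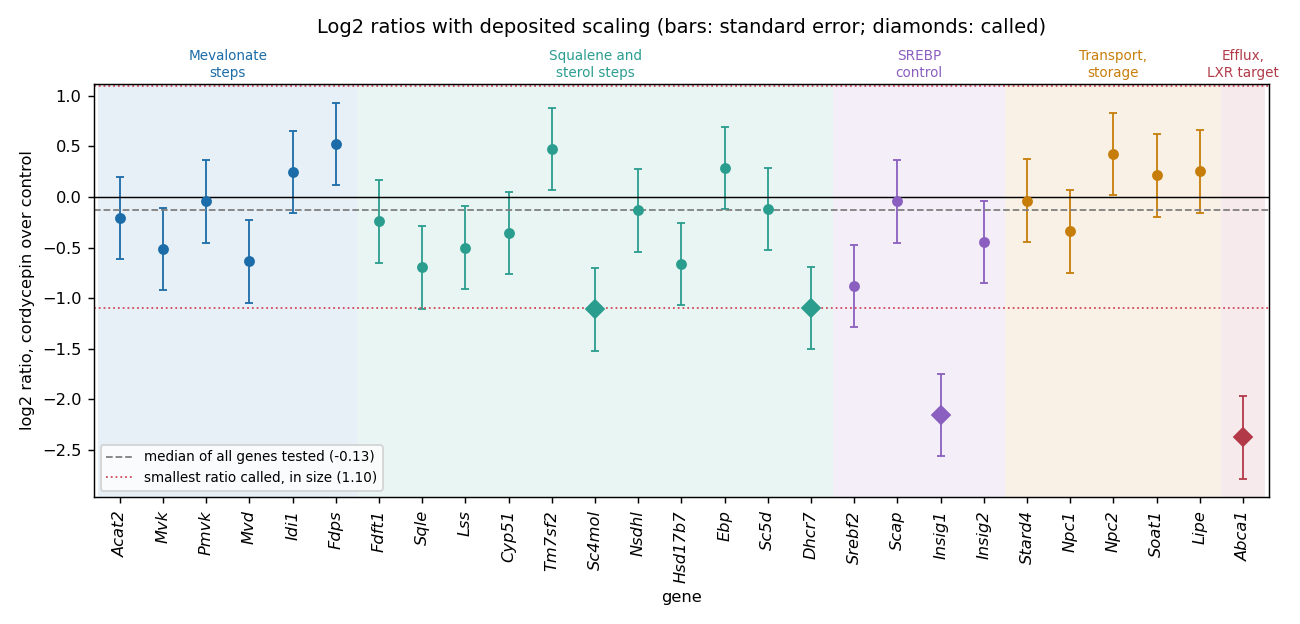
Log2 ratio of cordycepin over control (y axis) for the 27 detected genes (x axis, by role) with the deposited scaling, where bars are the standard error of 0.41 and diamonds mark genes called at an adjusted p under 0.05. Abca1 at −2.38 and Insig1 at −2.15 lie far below the dotted limit of 1.10 in size, and Sc4mol and Dhcr7 lie on it.

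The sign of the small ratios differed between scalings of the arrays. Of the 27 detected genes, 9 had a negative log2 ratio under all 7 scalings, 3 had a positive one (Fdps, Tm7sf2 and Npc2) and 15 changed sign. How many of all detected genes kept their sign, or their call, in all 7 was not counted. In single scalings, from 22.1% to 65.5% of detected genes were called lower. The scalings were the deposited one, the raw intensities, 3 that centred each array (on ribosomal protein genes, on the median of all probes, and on detected probes), cyclic loess and quantile normalization. Abca1 (log2 ratios from −2.71 to −2.04), Insig1 (−2.48 to −1.73) and Sc4mol (−1.44 to −0.77) were called lower in all 7. Dhcr7 was called in 6 and not after quantile normalization (−0.39, adjusted p = 0.070 in limma). Sqle and Hsd17b7 were called lower in 4 of the 7. Fdps, Tm7sf2, Npc2, Soat1 and Lipe were called higher in 4, namely median centring, centring on detected probes, cyclic loess and quantile normalization. Nsdhl, Sc5d, Stard4 and Npc1 were called in both directions, depending on the scaling.

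With median centring, which moved the median log2 ratio of all probes from −0.10 to 0.24, 5 of the 27 detected cholesterol genes were lower (18.5%, against 30.0% of detected genes) and 7 were higher (25.9%, against 20.0%). With quantile normalization, 6 were lower (22.2% against 24.7%) and 9 were higher (33.3% against 31.3%). With cyclic loess, 7 were lower (25.9% against 29.2%) and 5 were higher (18.5% against 15.5%), and with centring on detected probes 7 were lower (25.9% against 31.9%) and 6 were higher (22.2% against 15.5%). With ribosomal protein centring, 18 were lower (66.7% against 65.5%) and none was higher (against 0.709%). With the raw intensities, 5 were lower (18.5% against 27.4%) and none was higher (against 0.514%). The genes of transport and storage had a higher median ratio than those of SREBP control with the deposited scaling, 0.21 against −0.66 over detected genes, and with median centring, 0.55 against −0.33. A difference between these groups of genes was not tested.

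**Figure D4:**
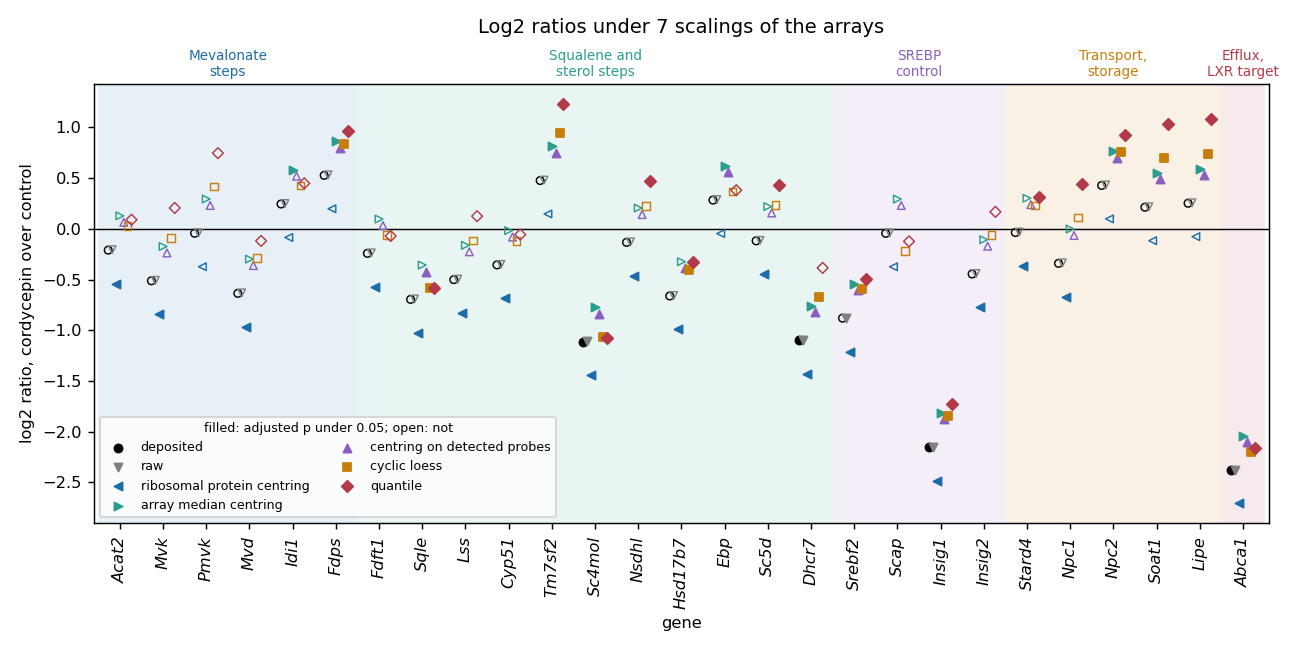
Log2 ratio of cordycepin over control (y axis) for the 27 detected genes (x axis, by role) under 7 scalings of the arrays, each with its own symbol, filled where the adjusted p was under 0.05. All 7 symbols are filled and below 0 for Abca1, Insig1 and Sc4mol, and 15 genes have symbols on both sides of 0.

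Other genes of the pathway, in 5 lists of 75 genes of which 73 were tested, had 13 lower (17.8%) and none higher, with a median log2 ratio of −0.45. The share lay between the 14.7% of all genes and the 22.1% of detected genes called lower, whose median log2 ratios were −0.13 and −0.31. Of the 13, 12 were lower in all 7 scalings, and Thrsp was not called with the raw intensities or after quantile normalization.

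Of the 19 further genes of uptake and transport tested, 4 were lower (21.1%, against 14.7% of all genes and 22.1% of detected genes). Among them were the sterol carrier Stard5 (log2 ratio −1.48, adjusted p = 0.0029) and Gramd1b, which moves cholesterol from the plasma membrane to the endoplasmic reticulum (−1.88, adjusted p = 6.3e-05). The p-values are from limma. Scarb1, the HDL receptor that supplies cholesterol to steroid-making cells, had a log2 ratio of −0.09.

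Of the 15 further genes of SREBP control, 4 were lower (26.7%, against the same 14.7% and 22.1%). These were 4 genes of ubiquitin ligases. Rnf145 had a log2 ratio of −1.15 (adjusted p = 0.036 in limma) and Syvn1 of −1.54 (adjusted p = 0.0017). Rnf139 measured 414 and 249 in control and 42.2 and 46.4 in cordycepin, where 1 of the 2 arrays detected it. Fbxw7, whose product marks nuclear SREBPs for degradation, measured 195 and 106 in control and was detected on neither cordycepin array. With the lowest detected signal on each cordycepin array (24.4 and 20.9) standing in for its values there, Fbxw7 was 6.34-fold lower. This is an estimate and not a bound, since an undetected probe can read higher, as Rnf139 did on H004 (46.4). Of 11 further efflux and LXR genes, none was called in either direction with the deposited scaling. With median centring, 6 of the 11 were called higher (54.5%), against 3679 of all 18474 genes and 20.0% of detected genes. Of these 6, Ch25h, Cyp27a1 and Nr1h2 were not detected on any array. With the same scaling 1 gene, Rxra, was called lower (9.09%, against 30.0% of detected genes). With centring on detected probes, 5 were called higher (45.5%) and 1 lower (9.09%), against 15.5% and 31.9% of detected genes. Quantile normalization gave 3 higher (27.3%) and none lower, against 31.3% and 24.7% of detected genes. Cyclic loess gave 2 higher (18.2%) and 1 lower (9.09%), against 15.5% and 29.2%. Over the 8 of the 11 detected on both arrays of a group, the median log2 ratio was −0.48 as deposited and −0.14 with median centring. With ribosomal protein centring, 4 were called lower (36.4%) and none higher, against 65.5% and 0.709% of detected genes. Ch25h, Cyp27a1, Nr1h2 and Rxra were named after their values were seen.

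Of 17 genes of fatty acid and triglyceride synthesis that SREBP-1 is known to control, 4 were lower (23.5%, against 14.7% of all genes and 22.1% of detected genes). Mid1ip1, an activator of acetyl-CoA carboxylase, had 7248 and 4975 in control and 1147 and 981 in cordycepin (log2 ratio −2.50, adjusted p = 2.5e-08 in limma). Lpin1, the phosphatidate phosphatase, had a log2 ratio of −1.86, Gpam, the acyltransferase that starts glycerolipid synthesis, of −1.54, and Thrsp, a relative of Mid1ip1, of −1.23. Scd1 and Scd2, the stearoyl-CoA desaturases, had log2 ratios of −0.27 and −0.11 and were not called.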

How the data were processed

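Total RNA of MA-10 cells was measured on 4 arrays, 2 per group. The intensities were deposited by the authors as raw values and as normalized values, the latter being the raw values times 1 constant per array (1.14, 0.888, 1.11 and 0.909 for H001 to H004), and the method was not given in the sources used here. Each probe also came with a detection p-value on every array, and each spot with a score (flag), both deposited by the authors. The log2 ratio and p-value of the authors' own comparison were deposited too and were not used. The labels name Cy5 as dye, while a protocol field describes a radioactive label.

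Log2 normalized intensities were compared in R 4.3.3 with limma 3.58.1 (lmFit, eBayes), with Benjamini-Hochberg adjustment over 24319 probes above 0 on every array, and 2104 of the 26423 probes were left out. Of all probes, 22553 carried 1 symbol, 237 several and 3633 none, and only the first kind named genes. For a gene with several probes, the one with the highest mean over the 4 arrays was used. A probe was detected at a detection p under 0.05, and no fold is given where no array detected it. The fit was tested on simulated data. Exact permutation tests compared pairs within arrays. The number of arrays limits the precision.

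All listed genes are named. Of the other lists, genes that were called and detected on both arrays of a group could be named, and Scarb1, Scd1 and Scd2 were chosen after their values were seen. Some genes counted in those lists are not reported here by name. The genes and lists were chosen with earlier results of these data known. Coordinates are from RefSeq on GRCm38.p6. The alternatives were 6 other scalings (centring on detected probes was added after seeing the data), other filters and tests, the mean of a gene's probes and leaving out each array.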

Additional observations from a re-analysis of the deposited data

How the results depend on the processing

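Numbers of genes called lower and higher moved with the scaling. The counts here are over all 30 cholesterol genes, so they can exceed those given above for the 27 detected genes. Srebf1, called higher with median centring and quantile normalization, was not detected on any array. Against 4 and 0 of the cholesterol genes, 2710 and 174 of all genes and 13 and 0 of the other pathway genes, cyclic loess gave 7 and 5 cholesterol genes, 2064 genes higher in all, and 26 and 7 other pathway genes. Centring on detected probes gave 7 and 6, 2829 higher in all, and 23 and 14. Median centring gave 8 cholesterol genes higher, 3679 higher in all, and 21 and 17 other pathway genes, and quantile normalization gave 10 higher, 4111 higher in all, and 16 other pathway genes higher. Ribosomal protein centring gave 19, 8893 and 47 lower. A floor of 16 on all probes gave 0 lower in each of the 3 sets and 2 higher in all. At an unadjusted p under 0.05, it gave 4 cholesterol genes (5 in the fit reported). The number of all genes at that threshold was not counted for these 2 fits. The test with each gene's own spread gave 0 in each direction in each set, with 3 cholesterol genes at an unadjusted p under 0.05. In that test, 2946 of all 24319 probes were lower at that threshold. Testing detected probes alone gave 89 higher in all. Causes were not tested.

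Leaving out each array gave 2 to 11 cholesterol genes lower and 0 to 1 higher, 1351 to 5504 genes lower and 47 to 1397 higher in all, and 6 to 35 other pathway genes lower. Without H002, 11 cholesterol genes were lower, and without H003 or H004 2 were, Abca1 and Insig1. Without H001 1 was higher. The within-array change of Npc1 over Npc2 was −0.48 with quantile normalization, and that of Srebf2 over Scap was −0.37 with quantile normalization and with cyclic loess. It ranged from −1.89 to −1.53 for Insig1 over Insig2, from −0.95 to −0.58 for Npc1 over Npc2 and from −0.87 to −0.81 for Srebf2 over Scap when each array was left out.

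The log2 ratios that turned sign were of genes not called with the deposited scaling. With median centring these were Acat2 (0.13), Pmvk (0.29), Fdft1 (0.10), Nsdhl (0.20), Sc5d (0.22), Scap (0.29) and Stard4 (0.30). With centring on detected probes they were Acat2 (0.064), Pmvk (0.23), Fdft1 (0.032), Nsdhl (0.14), Sc5d (0.16), Scap (0.23) and Stard4 (0.24). With quantile normalization they were Acat2 (0.090), Mvk (0.21), Pmvk (0.75), Lss (0.12), Nsdhl (0.47), Sc5d (0.43), Insig2 (0.17), Stard4 (0.31) and Npc1 (0.44). With cyclic loess they were Acat2 (0.026), Pmvk (0.42), Nsdhl (0.23), Sc5d (0.24), Stard4 (0.23) and Npc1 (0.11). With ribosomal protein centring Idi1 (−0.085), Ebp (−0.046), Soat1 (−0.12) and Lipe (−0.078) turned, and with the mean of a gene's probes Pmvk (0.20) did. Leaving out each array gave ranges that spanned 0 for Acat2 (−0.47 to 0.047), Pmvk (−0.41 to 0.32), Idi1 (−0.089 to 0.58), Nsdhl (−0.41 to 0.14), Ebp (−0.0097 to 0.58), Sc5d (−0.40 to 0.16), Scap (−0.30 to 0.21), Stard4 (−0.34 to 0.27), Npc1 (−0.71 to 0.028) and Lipe (−0.033 to 0.54). No ratios were computed for pairs with Srebf1 or Abcg1, which were not detected. No paired analysis was possible because the labels give the groups no shared replicate numbers.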
